A study of Bos taurus with 40 samples.

Results

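The CCN genes encode 6 secreted matricellular proteins, and all 6 were found under their older symbols, CTGF, CYR61, NOV, WISP1, WISP2 and WISP3, among 59051 rows in each of 4 bovine RNA count tables. They are now named CCN2, CCN1, CCN3, CCN4, CCN5 and CCN6 in that order, and no second row carried a current name. They were taken as a family by symbol, although earlier results of these data were known. The series asks how the RNA of single bovine oocytes and their follicle cells relates to embryo fate, so each follicle carries the fate of its oocyte: it reached the blastocyst (BL) or arrested at cleavage (CL). Granulosa cells came from single follicles, and the ooplasm biopsy and the cumulus cells were taken once the cumulus-oocyte complexes had been matured in vitro. The 32 RNA libraries fall into 8 groups of 4: granulosa cells BL and CL, cumulus cells BL and CL, ooplasm biopsies BL and CL, and biopsies matched to whole oocytes of unstated fate. Every sample is labelled diploid, none carries a transgene or drug, and animal, breed and age are not given. The first polar bodies, measured by bisulfite sequencing, were not analysed here.

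CCN proteins sit in the extracellular matrix, where they bind integrins and heparan sulfate proteoglycans and adjust growth factor signals. CTGF and CYR61 are the standard readouts of the Hippo pathway: when its kinases are inactive, YAP and TAZ enter the nucleus, join TEAD factors and switch both genes on, and the serum response factor does so too. NOV is a related CCN protein often opposed to growth, WISP1 and WISP2 were first found downstream of Wnt signals, and WISP2 lacks the carboxy-terminal domain of the others. WISP3 is best known from human joint disease. In mice, granulosa cells make CTGF, and its loss there disturbs follicle growth and ovulation.

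Library totals ran from 9875705 to 17668550 counts in granulosa cells, from 7964591 to 9592127 in cumulus cells, from 16804281 to 22557007 in the fate biopsies and from 13442089 to 23790073 in the matched set. Levels below are CPM, counts scaled to a library total of 1000000,, with SD over libraries, and fold changes are from edgeR. Levels were not set against each other between genes, because transcript lengths were not at hand. Cell type labels could be checked only in part: of 17 granulosa markers and 9 cumulus expansion genes none had a row under its symbol, and of 27 oocyte markers H1FOO and SOHLH1 had one. The linker histone of the oocyte, H1FOO, stood at 965.9 ± 319 CPM in the 16 ooplasm libraries (12 biopsies and 4 oocytes), at 0 or 1 count in each cumulus library and at 4 to 338 counts in granulosa libraries. The granulosa groups also differed as a whole. A mean of 27546 ± 1170 rows had at least 5 counts in BL granulosa cells and 19465 ± 1762 in CL granulosa cells (n = 4 each). Of 1027 chemosensory receptor rows, which follicle cells are not known for, 52.7% ± 20.7 had a count in BL and 5.70% ± 5.11 in CL. Libraries B20 and D27, with 79.1% and 59.2%, stood farthest out and had the smallest granulosa totals, and results that rest on them are given with and without them. In bulk samples such as these, fewer cells of a type and less RNA per cell cannot be told apart.

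**Figure D1:**
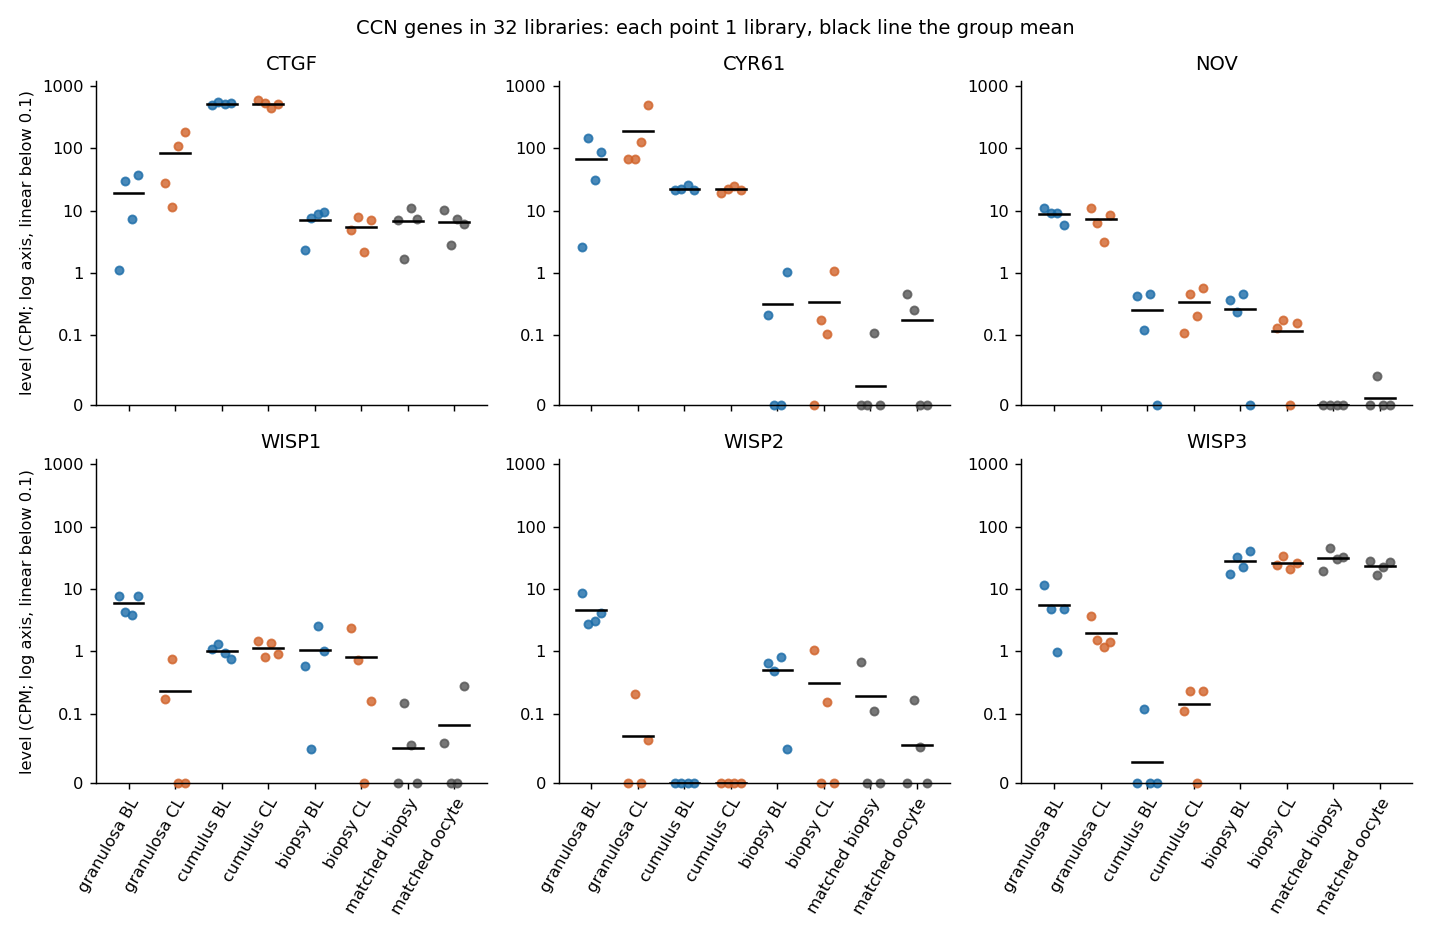
Levels of the 6 CCN genes in 32 libraries (y axis, CPM on a log axis that is linear below 0.1), by group (x axis, BL blue, CL orange, matched set grey). Each point is 1 library and each black line a group mean. CTGF is highest in cumulus cells (520.3 CPM on average), WISP3 in ooplasm, CYR61 and NOV in granulosa cells, and WISP2 has no count in any cumulus library.

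CTGF, the main Hippo readout, was highest in cumulus cells. In BL cumulus cells it had 4504, 4502, 4423 and 4252 counts, and in CL cumulus cells 5267, 4644, 4238 and 4466. The 8 cumulus libraries lay between 441.8 and 587 CPM, at 520.3 ± 42.1, a narrow band that holds both fates. In granulosa cells CTGF had 11 counts in B20, 486 in B21, 121 in D24 and 407 in D27 among the BL follicles. CL granulosa cells had 497 in B14, 165 in B23, 1874 in D10 and 2991 in D29. The granulosa range of 1.11 to 186 CPM did not reach the cumulus range, and how many other rows share this was not counted. In the edgeR test given below, 26.3% of all rows were called lower in granulosa than in cumulus cells. Ooplasm held less: 2.18 to 9.38 CPM in the 8 fate biopsies (6.27 ± 2.81), 1.66 to 11 in the 4 matched biopsies and 2.82 to 10.3 in the 4 whole oocytes. The order cumulus, granulosa, ooplasm held for the means, but granulosa library D24, at 7.43 CPM, lay inside the ooplasm range, and B20, at 1.11 CPM, below every ooplasm library.

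CYR61, the other standard YAP and TEAD target, followed another order. BL granulosa cells had 26 counts in B20, 2364 in B21, 503 in D24 and 963 in D27, and CL granulosa cells had 1187 in B14, 977 in B23, 2163 in D10 and 8049 in D29. The granulosa mean was 129.1 ± 158 CPM, against 22.3 ± 2.01 in cumulus cells, where all 8 libraries lay between 19.3 and 25.4 CPM. One granulosa library, B20 at 2.63 CPM, lay below every cumulus library and the other 7 above them all. In ooplasm CYR61 was near the detection limit. The BL biopsies had 4, 0, 0 and 21 counts and the CL biopsies 0, 3, 2 and 21, in the order of follicles given above. Whole oocytes had 8, 6, 0 and 0.

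NOV was highest in granulosa cells. It had 108, 145, 147 and 63 counts in the BL granulosa libraries B20, B21, D24 and D27, and 199, 93, 53 and 137 in the CL libraries B14, B23, D10 and D29. That is 8.02 ± 2.75 CPM over the 8 libraries, with 3.10 as the lowest. No other library came near: cumulus libraries had 0 to 5 counts (at most 0.575 CPM), the fate biopsies 0 to 8 (at most 0.456 CPM), and the matched set a single count in 1 oocyte. The granulosa libraries do not overlap any other group, and how many other rows share this was not counted.

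WISP3 was highest in ooplasm. The BL biopsies B20, B21, D24 and D27 held 325, 676, 389 and 823 counts, and the CL biopsies B14, B23, D10 and D29 held 554, 576, 396 and 505. The matched biopsies of oocytes 2, 3, 6 and 16 held 261, 916, 536 and 584, and the 4 whole oocytes 476, 398, 435 and 489. All 16 ooplasm libraries lay between 16.7 and 44.7 CPM, at 27.5 ± 8.05. Cumulus libraries had 0 to 2 counts, so that 6 counts were found in all 8. Granulosa cells stood between, with 113, 75, 16 and 52 counts in BL and 64, 22, 20 and 23 in CL, or 3.71 ± 3.503 CPM. No granulosa library reached the ooplasm range, and how many other rows share this was not counted. In the edgeR test given below, 30.9% of all rows were called lower in granulosa cells than in biopsies.

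WISP1 and WISP2 had few counts, and BL granulosa cells held the most of any group. WISP1 had 75 counts in B20, 68 in B21, 63 in D24 and 84 in D27 there, and 3 in B14, 11 in B23 and none in D10 and D29 among the CL granulosa libraries. WISP2 had 84, 43, 49 and 44 counts in the same BL libraries and 0, 3, 0 and 1 in the CL libraries. The BL and CL libraries did not overlap for either gene, but the share of all rows without overlap was not counted. Cumulus libraries had 6 to 13 WISP1 counts each (1.08 ± 0.268 CPM) and no WISP2 count in any of the 8. With 3 counts as the limit that a count of 0 allows, WISP2 in each cumulus library was under 0.313 to 0.377 CPM. In ooplasm both varied from library to library: the BL biopsies had 11, 1, 45 and 20 WISP1 counts and 12, 10, 14 and 1 WISP2 counts. The CL biopsies had 53, 12, 0 and 3 WISP1 counts and 24, 0, 3 and 0 WISP2 counts.

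The fate comparison in granulosa cells called 2 of the 6 members, both higher in BL, and none lower. Of all 22934 rows that passed the filter on low counts, 21.3% were called higher in BL and 0.349% lower, so that a gene called higher was common there. WISP2 was 5.33 ± 1.14 (SE) higher on the log2 scale (edgeR adjusted p = 0.0124), at 4.57 ± 2.69 CPM in BL and 0.0673 ± 0.0976 in CL. That fold rests on 220 BL counts against 4 CL counts, and both WISP genes passed the filter through their BL libraries. WISP1 was 3.97 ± 1.24 higher (edgeR adjusted p = 0.0432), at 5.87 ± 2.09 against 0.232 ± 0.360 CPM. The median log2 difference of all rows was 0.10, but rows of a like level leaned the same way as these genes. Of 3878 rows with a mean of 1 to 3 CPM, where WISP2 lies, 24.5% were called higher, with a median of 1.86. Of 5683 rows from 3 to 10 CPM, where WISP1 lies, 29.4% were called higher, with a median of 1.73.

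Both calls were lost without granulosa libraries B20 and D27, at log2 differences of 5.07 (WISP2, edgeR adjusted p = 0.144) and 3.87 (WISP1, edgeR adjusted p = 0.234). edgeR then called 0 of 23577 rows. WISP1 also lost its call without any single 1 of the libraries B20, B21, D24, D27, B14, D10 and D29, with log2 differences of 3.49 to 4.22 and edgeR adjusted p of 0.0646 to 0.109. WISP2 kept its call without each single library. H1FOO moved with these genes, with 338, 154, 95 and 207 counts in BL granulosa libraries and 7, 74, 4 and 8 in CL (log2 difference 2.69, edgeR adjusted p = 0.0877). Summed over the fate biopsies there were 0.0906 WISP1 counts and 0.0400 WISP2 counts per 100 H1FOO counts, 36.5 and 27.7 in BL granulosa cells, and 15.1 and 4.30 in CL granulosa cells. The part of ooplasm RNA and of the wider shift in detected rows and chemosensory rows in these 2 results was not tested.

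**Figure D2:**
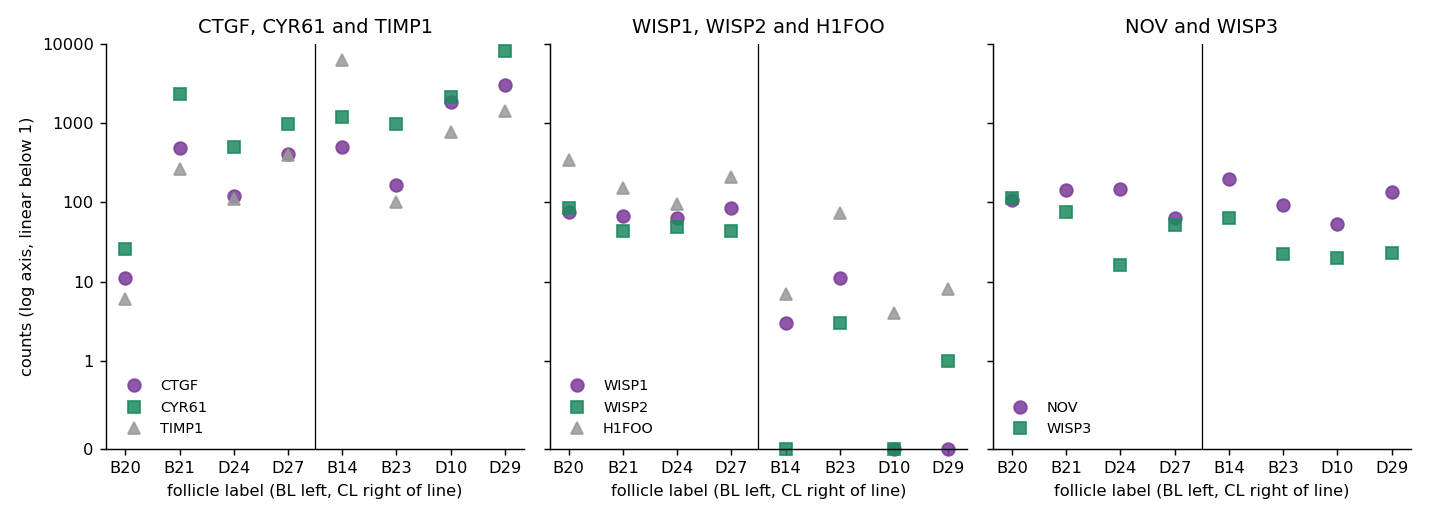
Counts in the 8 granulosa libraries (y axis, log axis linear below 1; x axis, follicle label, BL left and CL right of the line). Left, CTGF, CYR61 and TIMP1; middle, WISP1, WISP2 and H1FOO; right, NOV and WISP3. WISP1 has 63 to 84 counts in BL and 0 to 11 in CL, and CTGF, CYR61 and TIMP1 are all lowest in B20.

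CTGF and CYR61 had lower means in BL than in CL granulosa cells, without passing the test. CTGF stood at 19.2 ± 17.6 CPM in BL and 83.8 ± 80.6 in CL, a log2 difference of -2.61 ± 1.05 (edgeR adjusted p = 0.1003). CYR61 stood at 67.7 ± 64.6 against 190.5 ± 209 CPM, a log2 difference of -1.89 ± 1.03 (edgeR adjusted p = 0.196). The BL and CL libraries overlapped for both genes. Without CL library D29 the CYR61 difference was -0.90 (edgeR adjusted p = 0.488), and without BL library B21 it was -2.96 (edgeR adjusted p = 0.0880). CTGF passed the threshold under 2 of 14 alternatives, with no filter on low counts (log2 difference -2.79, edgeR adjusted p = 0.0431) and without CL library B23 (-3.01, edgeR adjusted p = 0.0282). Rows from 30 to 100 CPM, where CTGF lies, had a median of -0.60 and rows above 100 CPM, where CYR61 lies, -0.88. Of these 5140 and 1873 rows, 0.700% and 0.320% were called lower. TIMP1, an inhibitor of matrix metalloproteinases chosen by its symbol after values had been seen, had 6, 263, 109 and 395 counts in BL and 6247, 102, 777 and 1429 in CL, and like CTGF it was lowest in B20.

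NOV and WISP3 did not pass the test in granulosa cells either. NOV stood at 8.72 ± 2.13 CPM in BL and 7.33 ± 3.45 in CL (log2 difference -0.27 ± 0.56, edgeR adjusted p = 0.716). WISP3 stood at 5.48 ± 4.35 against 1.94 ± 1.13 CPM (log2 difference 0.82 ± 0.78, edgeR adjusted p = 0.417). For NOV the CPM means and the fitted difference have opposite signs, because the fit scales library totals by TMM, and with library totals alone the fitted difference was 0.26.

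In cumulus cells no member passed the test by fate. Only CTGF and CYR61 passed the filter on low counts, with log2 differences of -0.01 ± 0.08 (edgeR adjusted p = 0.978) and 0.03 ± 0.10 (edgeR adjusted p = 0.908). Spread between cumulus libraries was small, and the SE far below that of the granulosa comparison. Over all rows too, cumulus replicates were far more alike than those of any other group, and the cause was not tested. The SE therefore need not measure the spread between follicles. edgeR called 0% of 15410 rows in this comparison, with 2249 at an unadjusted p under 0.05, while DESeq2 called 159 of 7427 rows with an adjusted p. CYR61 got no adjusted p in DESeq2. The other 4 members fell under the filter. WISP1 stood at 1.03 ± 0.244 CPM in BL and 1.13 ± 0.318 in CL, NOV had 9 and 12 counts in all, WISP3 had 1 and 5, and WISP2 had none.

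In ooplasm biopsies no member passed it either. CTGF stood at 7.03 ± 3.20 CPM in BL and 5.51 ± 2.58 in CL (log2 difference 0.38 ± 0.65), WISP3 at 28.3 ± 10.6 and 26.5 ± 5.75 (0.11 ± 0.37), and WISP1 at 1.05 ± 1.08 and 0.805 ± 1.07 (0.31 ± 1.43). The edgeR adjusted p was 0.9999 for each of the 3. CYR61, NOV and WISP2 fell under the filter, with 25, 20 and 37 counts in all BL biopsies and 26, 9 and 27 in all CL biopsies. edgeR called 0% of 21174 rows, with 1017 at an unadjusted p under 0.05, and DESeq2 called 182 of 23609 rows with an adjusted p.

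Biopsies matched to their whole oocytes addressed whether a sample of ooplasm stands for the cell. The biopsies of oocytes 2, 3, 6 and 16 held 95, 34, 199 and 132 CTGF counts and the oocytes 177, 67, 143 and 110. The pair of oocyte 3 was lowest on both sides, and the biopsy was above its oocyte in the pairs of 6 and 16. CTGF differed by -0.06 ± 0.58 (log2, biopsy against oocyte, edgeR adjusted p = 0.996) and WISP3 by 0.30 ± 0.33 (edgeR adjusted p = 0.979). This fit was unpaired. With the oocyte number as a term, CTGF differed by -0.25 (edgeR adjusted p = 0.929) and WISP3 by 0.24 (edgeR adjusted p = 0.884). The other 4 members fell under the filter, with 0 to 9 counts in any of the 8 libraries. edgeR called 0% of 18540 rows, with 1028 at an unadjusted p under 0.05, and DESeq2 called 190 of 23380 rows with an adjusted p.

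**Figure D3:**
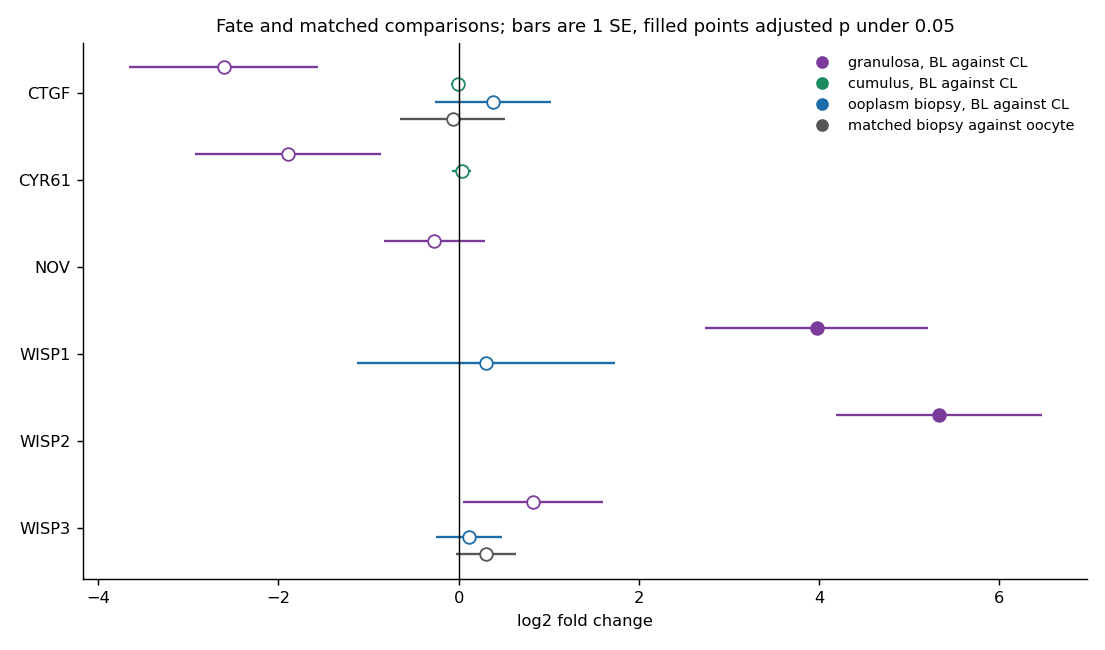
Log2 fold changes (x axis) of the CCN genes (y axis) between BL and CL in each cell type, and between matched biopsies and oocytes, with bars of 1 SE. Filled points have an edgeR adjusted p under 0.05, and genes under the filter on low counts have no point. Only WISP1 and WISP2 in granulosa cells are filled, at 3.97 and 5.33, and both lose the call without libraries B20 and D27.

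Whether the fate difference itself differed between cell types was tested as an interaction. Against ooplasm biopsies none of the 6 members was called in edgeR, where 6.9% of 28229 rows were called in either direction. WISP2 had a difference of fate effects of 4.61 ± 2.04 (edgeR adjusted p = 0.161), WISP1 of 3.55 ± 2.0 (edgeR adjusted p = 0.271) and CTGF of -3.24 ± 1.22 (edgeR adjusted p = 0.104). DESeq2 put CTGF (-3.17, DESeq2 adjusted p = 0.0483) and WISP2 (5.05, DESeq2 adjusted p = 0.0496) just past the threshold. Against cumulus cells WISP1 was the only one of 5 members called, at 4.51 ± 1.22 (edgeR adjusted p = 0.0300), where 9.91% of rows were called higher. That call was lost in 11 of 21 alternatives: without granulosa library D27 or B14, without any one of the 8 cumulus libraries, and without B20 and D27 together (3.95, edgeR adjusted p = 0.115). WISP2 has no fate difference in cumulus cells to compare with, since all 8 libraries are at 0.

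Between cell types, averaged over both fates, 4 members differed between granulosa cells and biopsies, where 27.3% of rows were called higher in granulosa cells and 30.9% lower. CYR61, NOV and CTGF were higher in granulosa cells, by 7.89 ± 1.03 (edgeR adjusted p = 2.33e-06), 4.92 ± 0.74 (edgeR adjusted p = 1.21e-05) and 2.18 ± 0.62 (edgeR adjusted p = 0.00525) on the log2 scale. WISP3 was lower in granulosa cells (log2 difference -3.68 ± 0.43, edgeR adjusted p = 6.19e-07). CYR61 and NOV fell under the filter in the biopsy fate fit and entered this fit only through granulosa libraries. Their folds and p-values therefore rest on few biopsy counts and are no separate support. This fit did not pair libraries of the same follicle. With the follicle as a term the same 4 members were called, and CTGF differed by 1.52 (edgeR adjusted p = 0.0338). WISP1 and WISP2 did not pass the test, at -0.22 ± 0.93 and -0.10 ± 0.67 (edgeR adjusted p = 0.859 and 0.909). WISP1 had means of 5.87 CPM in BL granulosa cells, 0.232 in CL granulosa cells and 0.927 in biopsies. WISP2 had 4.57, 0.0673 and 0.399 CPM in that order. Both had few counts in biopsies, and why they did not pass was not tested. Sampling stage, library set and cell type cannot be told apart in these comparisons.

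Against cumulus cells 5 members differed, where 46.5% of rows were called higher in granulosa cells and 26.3% lower, with a median over all rows of 0.55. CTGF was lower in granulosa cells (log2 difference -3.77 ± 0.62, edgeR adjusted p = 5.11e-05). CYR61 was higher by 2.26 ± 0.57 (edgeR adjusted p = 0.00204), NOV by 4.61 ± 0.52 (edgeR adjusted p = 9.89e-07) and WISP3 by 5.29 ± 0.73 (edgeR adjusted p = 9.63e-06). NOV, WISP2 and WISP3 fell under the filter in the cumulus fate fit and entered this fit only through granulosa libraries. Their folds and p-values therefore rest on few or no cumulus counts and are no separate support. WISP2 was called higher too (edgeR adjusted p = 0.00107, on log levels averaged over both fates). Its granulosa mean of 2.32 CPM was at least 6.73-fold the mean of 3 counts per cumulus library, and its granulosa counts are nearly all from BL follicles. The BL mean of 4.57 CPM was at least 13.3-fold that limit. CL granulosa libraries, at 0.207 CPM or less, lay under the cumulus limits of 0.313 to 0.377 CPM, so no fold holds for them. WISP1 differed by 0.01 ± 0.30 (edgeR adjusted p = 0.989). Here 3 of 4 CL granulosa libraries lay below every cumulus library and B23, at 0.759 CPM, beside the lowest at 0.753, while the BL libraries lay above the highest.

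Cumulus cells differed from biopsies in 3 of the 4 members that passed the filter, where 33.5% of rows were called higher in cumulus cells and 50.9% lower, with a median over all rows of -0.83. CTGF was 5.89 ± 0.29 higher (edgeR adjusted p = 5.85e-12) and CYR61 5.55 ± 0.79 higher (edgeR adjusted p = 5.20e-06). WISP3 was lower, with a log2 difference of -8.95 ± 0.48 (edgeR adjusted p = 2.09e-11). CYR61 entered this fit only through cumulus libraries and WISP3 only through biopsies. Their folds and p-values therefore rest on few counts on the other side and are no separate support. WISP1 did not pass, at -0.26 ± 0.77 (edgeR adjusted p = 0.760).

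**Figure D4:**
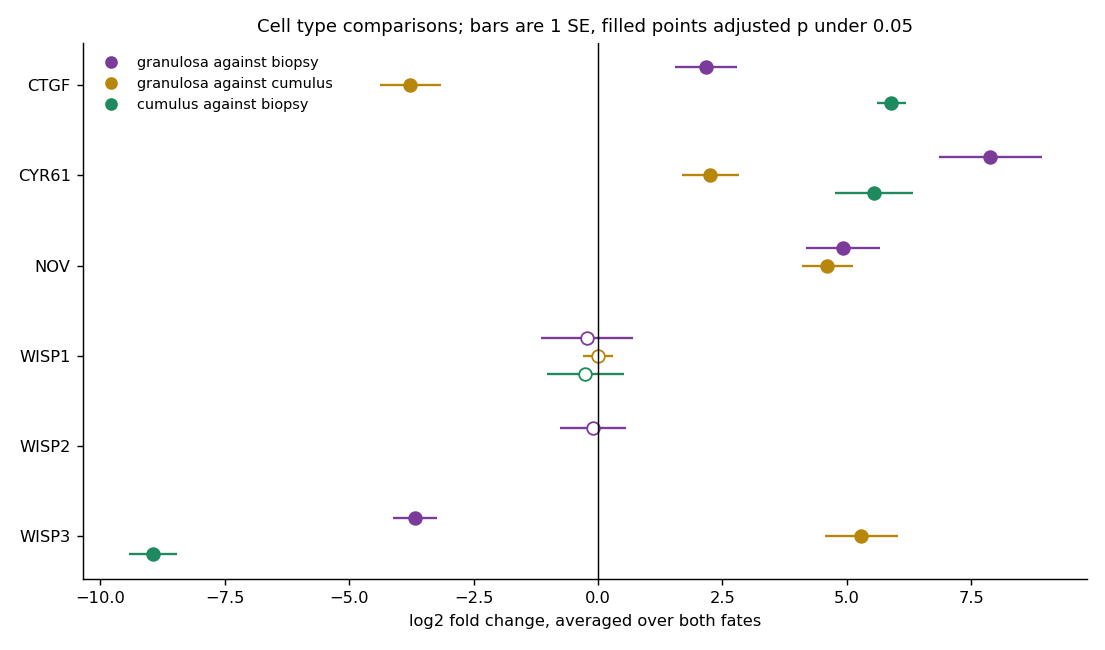
Log2 fold changes (x axis) of the CCN genes (y axis) between cell types, averaged over both fates, with bars of 1 SE and filled points for an edgeR adjusted p under 0.05. CTGF and CYR61 are both above biopsies in granulosa and cumulus cells but differ in opposite directions between granulosa and cumulus cells (-3.77 and 2.26). WISP2 against cumulus cells is left out because every cumulus library is at 0.

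The balance of the 2 Hippo readouts within a library needs no scaling between libraries. Granulosa libraries had 1.15 to 5.92 CYR61 counts per CTGF count (median 2.54, n = 8), and cumulus libraries 0.0328 to 0.0566 (median 0.0415, n = 8). The ranges do not overlap, and the mean log2 ratios differed by 6.08 (exact two-sided permutation test, p = 0.000155, the smallest it can give, adjusted over 6 ratio tests 0.000466). This ratio combines the opposite CTGF and CYR61 differences given above, from the same counts, so the test is no separate support for them. How many other pairs of rows separate in this way was not counted. The test treats the cumulus libraries as independent, although they were far more alike than other replicates. By fate the ratio did not differ detectably in granulosa cells (log2 difference 0.34, exact permutation p = 0.657, adjusted 0.789) or in cumulus cells (0.04, exact permutation p = 0.886, adjusted 0.886), with 4 libraries a group and 0.0286 as the smallest possible p. Library B20, with 11 CTGF counts and 26 CYR61 counts, had a ratio of 2.36, inside the range of the other granulosa libraries, so both genes were low there together. In ooplasm the ratio was 0 to 0.156.

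CTGF in ooplasm and WISP3 in granulosa cells were each set beside an abundant transcript of the other cell type. CTGF counts per TIMP1 count were 0.299 to 0.537 in cumulus libraries and 0.0796 to 2.41 in granulosa libraries. Summed over the fate biopsies, 964 CTGF counts stood beside 49 TIMP1 counts, a ratio of 19.7, and 3 of these 8 biopsies had no TIMP1 count while holding 44, 158 and 189 CTGF counts. CTGF in the fate biopsies was 1.21% of its cumulus level, and 13.3% of the 1915 rows with 100 CPM or more in cumulus cells stood lower than that. The median of these rows was 14.4%, and TIMP1 stood at only 0.0267%. TIMP1 is thus not typical of abundant cumulus rows, and the CTGF to TIMP1 ratio in biopsies depends on that choice. WISP3 counts per H1FOO count were 0.168 to 9.14 in granulosa libraries and 0.0148 to 0.0541 in fate biopsies. H1FOO was picked as an abundant ooplasm row and stood in granulosa cells at 0.901% of its biopsy level. A test of this ratio therefore cannot tell WISP3 from other rows, and its p is not given. WISP3 in granulosa cells was 13.6% of its biopsy level. Of the 2126 rows with 100 CPM or more in fate biopsies, 28.5% stood lower than that, and the median was 28.2%. The part of ooplasm RNA in granulosa WISP3, and of follicle cell RNA in ooplasm CTGF, was not tested. For CYR61 in biopsies, the D27 biopsy had 21 CYR61 counts and no TIMP1 count, D29 had 21 and 20, and D10 had 2 and 24.

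**Figure D5:**
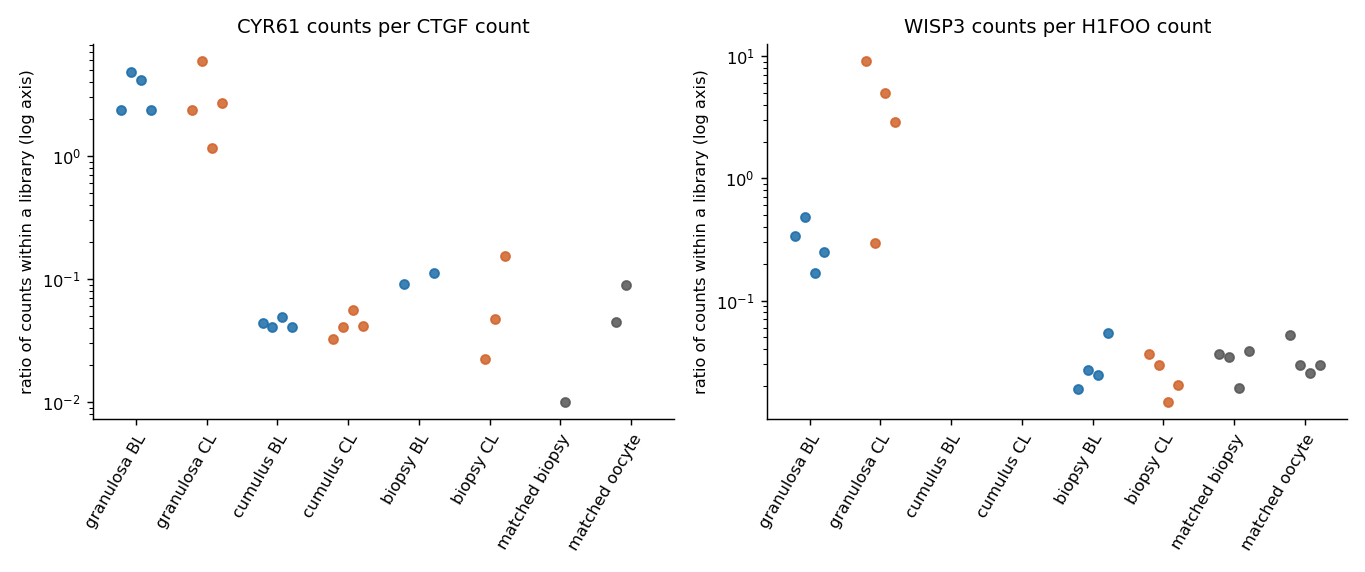
Ratios of counts within a library (y axis, log axis) by group (x axis, BL blue, CL orange, matched set grey). Left, CYR61 counts per CTGF count, where granulosa libraries lie at 1.15 to 5.92 and cumulus libraries at 0.0328 to 0.0566; right, WISP3 counts per H1FOO count, where granulosa libraries lie above all ooplasm libraries. Libraries at 0 or with no count in the denominator have no point.

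Few other genes of the pathway could be looked up. Lists of 54 Hippo kinases and regulators, 27 further YAP targets, 25 CCN receptors and partners and 17 other matricellular genes matched no row by symbol. Of 10 YAP, TAZ and TEAD factors and cofactors VGLL1, a TEAD cofactor, matched, and it was too low to be tested by fate. Of the 2 oocyte markers SOHLH1, an oocyte transcription factor, was too low in granulosa and cumulus cells and did not pass in biopsies (log2 difference -0.15, edgeR adjusted p = 0.9999). A further 3 rows, MKL1, MKL2 and MPP5, were picked by symbol after that, and none was called by fate in granulosa cells, cumulus cells or biopsies. MKL1 and MKL2, cofactors of the serum response factor, differed by 1.31 ± 0.51 (edgeR adjusted p = 0.0888) and -0.63 ± 0.39 (edgeR adjusted p = 0.241) in granulosa cells. MPP5, a scaffold of the Crumbs polarity complex, differed by -0.49 ± 0.32 (edgeR adjusted p = 0.261). MPP5 was higher in biopsies than in granulosa cells, at 658.6 ± 169 against 55.0 ± 6.74 CPM (log2 difference of granulosa against biopsy -4.13, edgeR adjusted p = 6.54e-11). MKL1 and MKL2 went the other way and were called higher in granulosa cells (edgeR adjusted p = 0.0170 and 0.000351). Of all rows, 30.9% were called lower in granulosa cells than in biopsies, so the direction that MPP5 shares with WISP3 was common.

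Rows with the pattern most like each member's were ranked by the root mean square difference of log2(CPM + 0.5), centred on each row's own mean, over 32 libraries and 973 other rows with a symbol and a mean of 1 CPM or more. WISP2 had too low a mean to be ranked. CTGF was nearest to SEPT5 (1.01), TLNRD1 (1.18) and SNRNP70 (1.22), and CYR61 to IER5 (0.958), COL4A4 (0.990) and ZNF484 (1.003). NOV was nearest to C8H9orf3 (0.578), a row that RefSeq names GNRHR2 (0.624) and OSCAR (0.702), and WISP1 to CEACAM20 (0.635), GRIN1 (0.705) and CFAP46 (0.712). WISP3 was nearest to KANTR (0.648), CCDC62 (0.667) and TTN (0.729). No member was among the 3 nearest of another. CYR61 stood at place 252 from CTGF, and NOV was the nearest member to CYR61, at place 203. CTGF and WISP3 were far apart, at a difference of 5.09, more than the 2.85 of CTGF about its own mean.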

How the data were processed

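RNA was measured in 32 libraries of polyA RNA, prepared with the SMART-Seq HT and the Nextera XT kit per the labels' protocols. The tools for RNA were STAR and featureCounts after trimming by Trim Galore and cutadapt, per the submitters' processing notes. The sources used here give no versions, build or strand setting. Per row, the authors deposited whole-number counts not normalized, in 4 tables, and these counts were used as deposited. The bisulfite table has 24 value columns whose headings name no sample, and it was left out. Of 59051 rows 2474 carried a symbol, 1105 of them through a RefSeq gene table of another assembly used for names alone.

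Groups came from the labels. Cumulus columns show the fate but not the sample number. Rows passing filterByExpr were scaled by TMM, and edgeR 4.0.16 tested them in R 4.3.3 (robust quasi-likelihood F test, Benjamini-Hochberg adjustment over all rows tested, called under 0.05). Cell type contrasts average the log levels of both fates. DESeq2 1.42.0 (Wald test) was an alternative, beside other scalings, no filter, each library left out, B20 and D27 left out, the label letter as covariate and a replicate block. DESeq2 was fitted to every row with a count, but rows it gave no adjusted p were not tested. Count ratios were compared by exact permutation. The edgeR code was run on simulated counts with 200 changed rows, as many higher as lower. That run does not cover a shift to 1 side such as that of the granulosa fate comparison. Python 3.11.15 and matplotlib 3.10.9 drew the figures.

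All 6 members are named whatever their result, with up to 4 matched rows of each list. The members and lists were chosen with earlier results of these data known. H1FOO and TIMP1 are given as abundant ooplasm and cumulus rows, and MKL1, MKL2 and MPP5 were added after the lists had matched 3 of 203 symbols. A further added row is not reported here. Replicates of a group differed by more than counting noise (chi-square per degree of freedom 4.70 or more). The labels do not say whether they came from separate animals, and p-values then measure only the spread between these samples. Limits for a count of 0 (3 counts) cover counting error alone. Granulosa and biopsy libraries with the same label come from the same follicle, so the label pairs them, although their deviations from group means correlated at -0.02 to 0.14 across rows. In the matched set same-number correlations were 0.17 to 0.26 in 4 pairs, and the numbers were taken as pairs. In both sets the pairs entered only the replicate block, and the main fits were unpaired.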

Additional observations from a re-analysis of the deposited data

Results flagged for a closer look

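In 6 of 36 groups of 4 libraries with enough counts, 1 library stood apart from the other 3 (gap to the nearest over the group's range, beyond Dixon's critical value). Chance flags about 1 in 20 groups of normally distributed values. The rate for skewed levels and low counts such as these is not known, so 6 of 36 cannot be set against it. For CYR61 the CL granulosa library D29 was flagged at 501.1 CPM, against 126.5 or less in the others. So was the CL biopsy D29 at 1.10 CPM, against 0.179 or less. The BL biopsy D27, with the same 21 counts (1.04 CPM), was not flagged, and its granulosa library stood at 89.0 CPM. A BL cumulus library was flagged at 25.4 CPM, against 22.1 or less. For WISP2 the flagged libraries were the CL biopsy B14 at 1.06 CPM and the matched biopsy of oocyte 2 at 0.670 CPM, from 24 and 9 counts. For WISP3 it was the CL granulosa library B14 at 3.62 CPM, against 1.52 or less. Without D29 the log2 difference of CYR61 by fate in granulosa cells went from -1.89 to -0.90 (edgeR adjusted p = 0.488), and with other single libraries left out it ranged from -2.96 to -1.37.

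The fate difference of WISP1 differed between granulosa and cumulus cells by 4.51 on the log2 scale (edgeR interaction test, adjusted p = 0.0300, range over 21 alternatives 0.000341 to 0.115). WISP1 was higher in 4 of 4 BL granulosa libraries than in any CL granulosa library, and the cumulus groups overlapped. The share of all rows with such a split in granulosa cells was not counted.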

How the results depend on the processing

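Of 15 results with a call, 12 were called in every alternative run, and none changed sign. The exceptions were WISP1 and WISP2 by fate in granulosa cells and the WISP1 interaction against cumulus cells, given above. The number of members called by fate in granulosa cells was 2, ranged from 1 to 3 when single libraries were left out, and was 0 without B20 and D27. The interaction against cumulus cells called 0 to 1 members with single libraries left out and 0 without B20 and D27, and that against biopsies called 2 in DESeq2. The cause was not tested. Leaving out B20 and D27 leaves 2 BL granulosa libraries.

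Under the replicate block (same follicle, or same oocyte number, as a term of the fit) WISP2 in granulosa cells against biopsies went from -0.10 to 0.64, and no call of a member changed in any comparison that it could be fitted to.

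Signs also changed among 12 uncalled results on the log2 scale. With library totals as the scale the values were 0.26 for NOV by fate in granulosa cells, 0.0067 for CTGF by fate in cumulus cells, 0.0261 for CTGF in matched biopsies, 0.35 for WISP1 and 0.53 for WISP2 in granulosa cells against biopsies, and 0.22 for WISP1 in cumulus cells against biopsies. Scaled by DESeq2 size factors, NOV by fate in granulosa cells was at 0.0647 and WISP2 in granulosa cells against biopsies at 0.0859, and the DESeq2 test gave 0.0523 and 0.0280. Without B20 and D27 NOV was at 0.0536, and WISP1 in granulosa against cumulus cells at -0.30 (-0.10 with no filter). With single libraries left out, CTGF and CYR61 by fate in cumulus cells ranged from -0.0736 to 0.0594 and from -0.0241 to 0.11, and WISP1 and WISP3 by fate in biopsies from -0.62 to 1.93 and from -0.11 to 0.27. CTGF in matched biopsies ranged from -0.37 to 0.27, and WISP1 and WISP2 in granulosa cells against biopsies from -0.98 to 0.74 and from -0.61 to 1.28. WISP1 ranged from -0.94 to 0.13 in granulosa against cumulus cells and from -0.47 to 0.54 in cumulus cells against biopsies. The interactions of CYR61 against biopsies and of NOV against cumulus cells ranged from -3.61 to 0.36 and from -0.13 to 0.68.

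By fate in granulosa cells 4964 of 22934 rows were called, 7149 of 35243 with no filter, 11431 of 30913 in DESeq2 and 0 of 23577 without B20 and D27. The median over rows was 0.10 with TMM, 0.48 under DESeq2 size factors and 0.70 under library totals. Members under 10 counts in a library are limited by depth.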

Other observations

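The 8 fate biopsies and the 4 matched biopsies are both ooplasm biopsies but were deposited in separate tables, and they were not compared by a test. CTGF stood at 6.27 ± 2.81 CPM in the first and 6.78 ± 3.85 in the second, and WISP3 at 27.4 ± 7.92 and 31.6 ± 10.4, so that the ranges overlap for both members. The ranges overlap for the 4 members with few counts too. WISP1 had 145 counts in 7 of 8 fate biopsies and 4 counts in 2 of 4 matched biopsies, or 0.927 ± 1.01 against 0.0504 ± 0.0691 CPM. NOV had 29 counts in 6 of 8 fate biopsies and none in the 4 matched biopsies, and CYR61 had 51 counts in 5 of 8 and 2 counts in 1 of 4. WISP2 stood at 0.399 ± 0.408 against 0.195 ± 0.321 CPM. The fate biopsies also had more rows with 5 counts or more, 24168 ± 713 in BL and 23062 ± 2242 in CL against 19825 ± 398 in the matched biopsies. Within the fate biopsies, D24 and B14 held the most WISP1 counts (45 and 53) and also the most WISP2 counts (14 and 24).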
